A study of Rattus norvegicus with 18 samples.

Results

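Genes that make, move, break down or sense the inhibitory transmitters GABA and glycine were followed across 18 arrays of the ageing rat nervous system. They were Gad1, Gad2, Slc32a1, Slc6a11, Slc6a5, Abat, Glra1, Glra2 and Glrb, a fixed list of 9 gene symbols, and a probe set was a member where the array annotation gave it 1 of those symbols. This took 13 of the 15923 probe sets on the array and 9 of the 10412 genes that could be named on it. RNA came from the oculomotor nucleus, the midbrain cell group whose motor neurons move the eye, and from the spinal cord, each at 6, 18 and 30 months of age. Each of the 6 groups had 3 arrays. Each RNA sample combined the tissue of 4 animals, so an array is a pool and not an individual, and the p-values below measure the spread between pools. The labels name no treatment, and 6 months was the study's baseline. The strain F344BN is named on only 2 samples, but there for every age and both tissues; the animals' sex, and whether both tissues came from the same animals, were not given in the sources used here.

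GABA is made from glutamate by 2 glutamate decarboxylases, GAD67 (Gad1) and GAD65 (Gad2), and is loaded together with glycine into synaptic vesicles by a shared carrier, VGAT (Slc32a1). After release GABA is taken up by carriers of the plasma membrane, among them GAT3 (Slc6a11), found mostly on astrocytes, and is broken down by GABA transaminase (Abat). Glycine returns to glycinergic terminals through GlyT2 (Slc6a5), which marks neurons that release glycine. Glycine receptors are chloride channels built from alpha subunits (Glra1, the main form of the adult cord and brainstem, and Glra2, the form that prevails before birth) and the beta subunit (Glrb), which ties the channel to the synaptic scaffold. In the spinal cord both transmitters shape motor output, and in the oculomotor nucleus inhibitory input to the motor neurons is carried largely by GABA.

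The promoters of 4 members are shown so that genes that were lower in the cord (Gad2 and Slc6a11) can be read beside genes that did not pass the test (Slc32a1 and Glrb); these were the 4 members whose window lay outside the annotated gene. Each is the 250 bases before the annotated start of the gene in RefSeq on GRCr8, read 5′ to 3′ on the strand of the gene. Capitals mark GGGCGG, the core of a GC box, or its reverse complement CCGCCC, and the E-box pattern CANNTG; each motif, and also the TATA box TATAAA, was searched on both strands, and no marked matches overlapped. Gad2 lies at chr17:89671468-89671717 on the plus strand, Slc6a11 at chr4:148853307-148853556 on the plus strand, Slc32a1 at chr3:167686995-167687244 on the plus strand and Glrb at chr2:168505615-168505864 on the minus strand.
Gad2: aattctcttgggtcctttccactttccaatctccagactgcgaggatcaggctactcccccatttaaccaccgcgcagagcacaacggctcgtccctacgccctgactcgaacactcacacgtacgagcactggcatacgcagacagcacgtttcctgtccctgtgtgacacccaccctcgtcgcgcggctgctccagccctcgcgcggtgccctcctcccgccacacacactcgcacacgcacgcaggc
Slc6a11: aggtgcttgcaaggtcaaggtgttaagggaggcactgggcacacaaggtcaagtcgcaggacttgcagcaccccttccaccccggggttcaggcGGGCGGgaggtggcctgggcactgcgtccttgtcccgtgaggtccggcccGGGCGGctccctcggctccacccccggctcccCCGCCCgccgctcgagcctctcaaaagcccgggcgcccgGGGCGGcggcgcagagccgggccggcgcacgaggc
Slc32a1: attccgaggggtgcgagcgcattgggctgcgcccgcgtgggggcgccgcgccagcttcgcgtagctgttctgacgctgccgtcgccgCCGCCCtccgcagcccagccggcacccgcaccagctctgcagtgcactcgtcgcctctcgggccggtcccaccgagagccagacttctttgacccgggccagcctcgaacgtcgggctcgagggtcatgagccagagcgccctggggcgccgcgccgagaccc
Glrb: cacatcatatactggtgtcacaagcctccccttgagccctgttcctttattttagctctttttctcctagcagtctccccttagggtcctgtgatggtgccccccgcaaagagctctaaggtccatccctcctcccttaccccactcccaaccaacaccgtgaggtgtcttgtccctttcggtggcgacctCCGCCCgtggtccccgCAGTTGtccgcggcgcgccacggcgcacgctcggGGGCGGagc
None of the 4 windows held TATAAA, which 12.9% of 33465 promoter windows of that length held on either strand. GGGCGG was found 4 times for Slc6a11, 2 times for Glrb, 1 time for Slc32a1 and 0 times for Gad2, against 30.5% of all windows with at least 1 match. The only CANNTG match was in Glrb, whereas 65.5% of all windows had one. The windows were rich in CG dinucleotides, with 22 in Gad2, 25 in Slc6a11, 34 in Slc32a1 and 16 in Glrb against a median of 5, and 86.3%, 90.3%, 97.0% and 76.2% of all windows had fewer. A match is a run of letters and not a measured binding site. Of the 9 members, 7 had an entry in the promoter table; Abat and Glra1 had none.

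Values are signal intensities of the deposited table, on which every array has nearly the same 2% trimmed mean (500.1). Array medians lay between 252.1 and 275.3, and a floor of 66.4 replaced any lower value, which touched 18.0% to 21.0% of the probe sets per array. A signal depends on the probes as well as on the transcript, so levels are compared between arrays and never between genes. The tissue labels were checked on the listed markers that passed the filter on low values. Of 5 listed Hox genes on the array, Hoxb7, Hoxc4 and Hoxc8 were under the filter. The 2 kept were higher in the cord (Hoxd8 by 4.23 and Hoxa5 by 3.62 on the log2 scale). Their mean log2 was 6.05 to 6.54 on the oculomotor arrays, under the filter limit of 7.46. They thus passed only through the cord and had to be higher there. The midbrain monoamine markers Nr4a2 and Pitx3 were under the filter. All 5 that were kept were higher in the oculomotor samples. Tyrosine hydroxylase (Th) differed by -4.66 on the log2 scale, cord minus oculomotor nucleus. The mean log2 of these 5 was 7.10 to 7.59 on the cord arrays, near or under the limit. As a set they passed largely through the oculomotor nucleus, so their direction was in part fixed by the filter. Of the motor neuron markers, Isl1 and Isl2 were under the filter, and all 4 that were kept were higher in the cord. The acetyltransferase Chat had group means of 114 to 155 in the oculomotor nucleus and 363 to 375 in the cord. It was above the floor on all 18 arrays. Its oculomotor means were under the filter signal of 176.0, so Chat passed only through the cord and had to be higher there. The extent of the oculomotor dissection was not given in the sources used here, and the part of neighbouring midbrain tissue in the tissue differences below was not tested. All 5 skeletal muscle markers were higher in the cord. Signals were also summed over all 10 listed muscle genes on the array, those under the filter included. In the cord the sums reached 13977 at 6 months, 7225 at 18 months and 4217 at 30 months, against 2698 to 3942 in the oculomotor nucleus. A set of 4 arrays stood apart on the first principal component of the values centred by group, with 27.1% of the variance: replicate 3 of the 30-month oculomotor nucleus, replicate 1 of the 6-month cord, replicate 3 of the 18-month cord and replicate 3 of the 30-month cord. They lay at -12.1 to -16.6, and no other array lay below -1.70. At the other end replicate 2 of the 30-month oculomotor nucleus lay at 14.2, about as far from 0. It also had the highest median, 275.3, and it was not counted among the 4 arrays. The part of the 4 arrays and of the muscle transcripts in the results was not tested beyond the values given beside each result.

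Of the 9 genes, 7 passed the filter on low values (a mean signal above 176.0, taken on the log2 scale), through 8 probe sets; Slc6a5 and Glra1 did not and were tested in a second fit without the filter. In that fit of all 15866 probe sets with limma, averaged over the ages, 5 of the 9 members were called lower in the cord at an adjusted p under 0.05 (background 15.7%), 2 were called higher (16.7%) and 2 were not called. Lower were the synthesis genes Gad1 and Gad2, the carrier Slc6a11, the catabolic enzyme Abat and the receptor subunit Glra2, and higher were the glycine carrier Slc6a5 and the receptor subunit Glra1. The median difference over the 9 was -0.31 on the log2 scale, against 0 over all probe sets. With the filter, used for the values below unless stated, the same 5 were called among 7, where 47.2% of 9482 probe sets were called and 23.6% were called lower, so tissue differences of this kind were common. Gad2 and Glra2 passed the filter only through the oculomotor nucleus (mean log2 in the cord of 7.43 and 6.69 against a limit of 7.46) and so had to differ, and the filter took out both members that were higher in the cord; the counts with the filter are a description. At single ages, 4 of 7 members were called lower at 6 months (background 26.1% called, 12.7% called lower), 5 of 7 at 18 months (26.2% and 12.3%) and 4 of 7 at 30 months (21% and 9.7%). In the samples of both tissues RNA came from many cell types, so fewer cells of a type and less RNA per cell cannot be told apart.

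**Figure D1:**
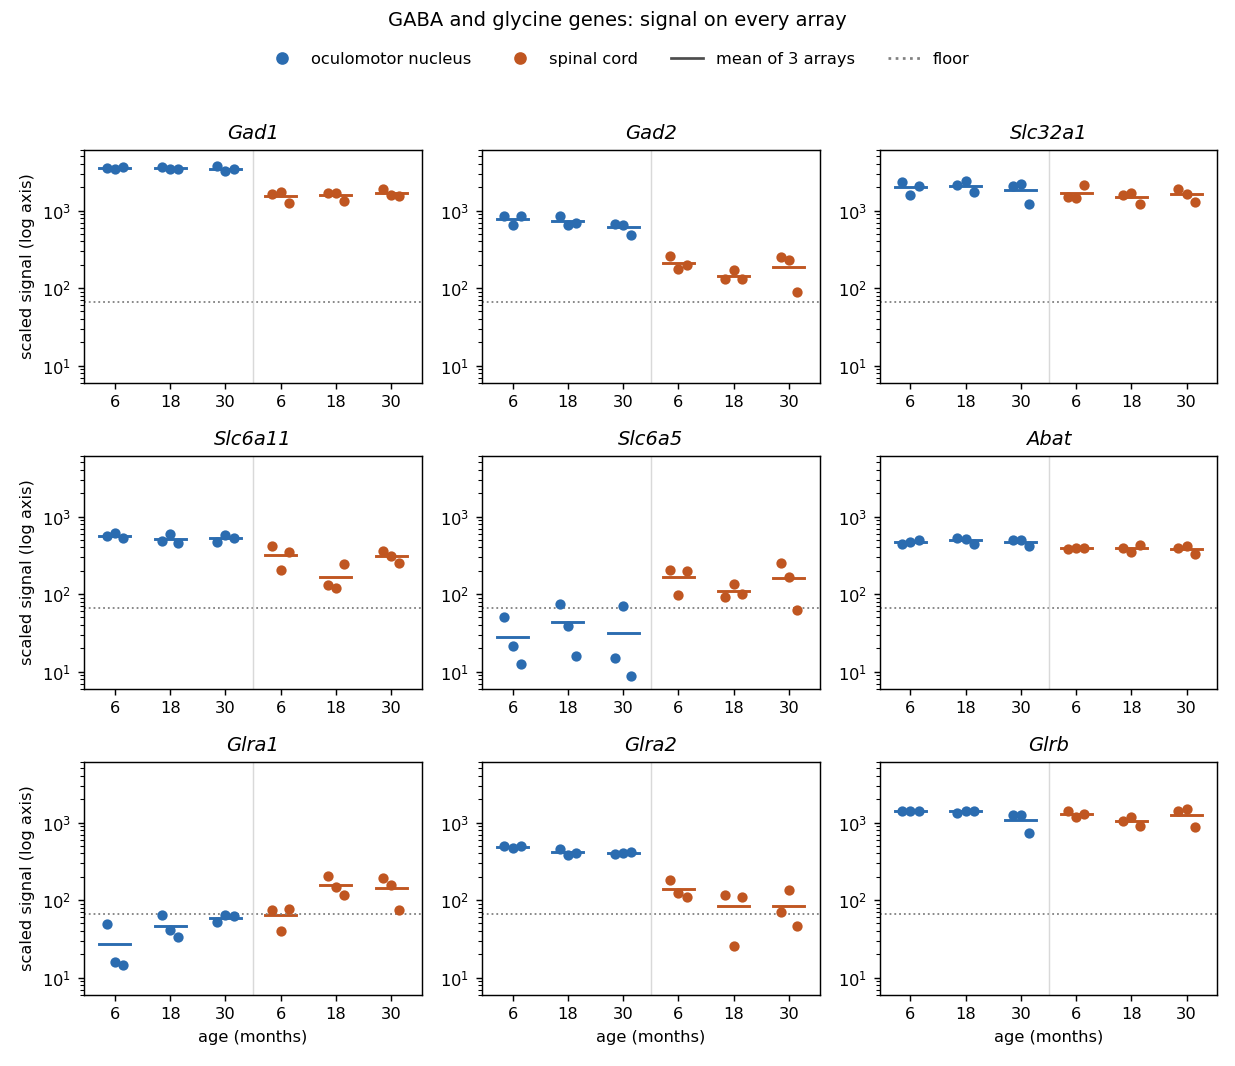
Signal intensity (log axis) of the probe set with the highest mean of each of the 9 genes on each of the 18 arrays, by tissue and age in months; each point is 1 array and the dotted line is the floor of 66.4. Gad1, Gad2, Slc6a11 and Glra2 separate the tissues on every array, whereas Slc6a5 and Glra1 lie at or near the floor in the oculomotor nucleus.

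Gad1, which encodes the decarboxylase GAD67, was lower in the cord at every age. In the oculomotor nucleus its signals were 3553, 3463 and 3647 (6 months), 3634, 3485 and 3428 (18 months) and 3746, 3267 and 3430.0 (30 months). In the cord they were 1636, 1757 and 1248 (6 months), 1675, 1704 and 1349 (18 months) and 1919, 1594 and 1546 (30 months). The lowest oculomotor array was well above the highest cord array, so the tissues did not overlap, while the 3 ages of each tissue overlapped one another. The mean was 3517 ± 144 in the oculomotor nucleus and 1603 ± 204 in the cord (SD, n = 9 each). The difference was -1.14 on the log2 scale (SE 0.07, 95% interval -1.29 to -1.0, 2.21-fold, limma adjusted p = 1.39e-10), and 242 of the 9482 probe sets had a larger one in either direction. By age it was -1.21, -1.17 and -1.05 at 6, 18 and 30 months. A second probe set of the gene (1370760_a_at, beside 1368344_at) ran from 511 to 958 in the oculomotor nucleus and from 193 to 364 in the cord and gave -1.49 (SE 0.13, 2.80-fold, limma adjusted p = 1.32e-08), also without overlap.

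Gad2, the decarboxylase GAD65 that is enriched at nerve terminals, differed more. Its signals (probe set 1369462_at) were 861, 651 and 847 (6 months), 862, 646 and 699 (18 months) and 679, 653 and 486 (30 months) in the oculomotor nucleus. In the cord they were 259.9, 174 and 199 (6 months), 133, 170.0 and 132 (18 months) and 249, 232 and 88.0 (30 months). Every oculomotor array lay above every cord array, and the single lowest value in each tissue was replicate 3 at 30 months, an array that stood apart. The tissue means were 709.5 ± 126 and 182 ± 58.4 (SD, n = 9 each). The difference was -2.02 (SE 0.16, 95% interval -2.36 to -1.68, 4.05-fold, limma adjusted p = 6.24e-09), larger than that of all but 40 of the probe sets kept. Since Gad2 passed the filter only through the oculomotor nucleus, this p-value and rank are a description. In the fit without the filter the limma adjusted p was 2.40e-06. The difference was -1.91 at 6 months, -2.34 at 18 months and -1.80 at 30 months, and -1.94 without the 4 arrays that stood apart.

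Slc32a1, the vesicular carrier on which both transmitters depend, did not pass the test of a tissue difference. The oculomotor signals (1387380_at) were 2317, 1598 and 2089 (6 months), 2150.3, 2401 and 1759 (18 months) and 2099.7, 2221 and 1210.2 (30 months). The cord signals were 1500.1, 1464 and 2142 (6 months), 1593, 1709 and 1231 (18 months) and 1923, 1654 and 1311 (30 months). The ranges of the tissues overlapped widely over all arrays; at 18 months alone they did not. The means were 1983 ± 386 and 1614 ± 287 (SD, n = 9 each), and the difference of -0.29 (SE 0.12, 95% interval -0.55 to -0.03) did not pass (limma adjusted p = 0.0659; exact permutation p = 0.065, two-sided, tissue labels permuted within ages). The call turned on single arrays and settings. It passed without replicate 2 of the 6-month oculomotor nucleus (adjusted p = 0.0371), replicate 3 of the 18-month oculomotor nucleus (0.0471), replicate 3 of the 30-month oculomotor nucleus (-0.38, adjusted p = 0.00668), replicate 3 of the 6-month cord (0.0290) or replicate 1 of the 30-month cord (0.0434), without the 4 arrays that stood apart (-0.26, adjusted p = 0.0476), and with each array centred on its median (-0.31, adjusted p = 0.0396). With the muscle marker mean as a covariate it was -0.06 (limma adjusted p = 0.829).

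Slc6a11, the carrier GAT3 that clears GABA into astrocytes, was lower on every cord array than on any oculomotor array. Its oculomotor signals (1369715_at) were 562, 607 and 533 (6 months), 487, 594 and 456 (18 months) and 467, 581 and 536 (30 months). The cord signals were 415, 202 and 354 (6 months), 131, 121 and 248 (18 months) and 365, 309.5 and 251 (30 months). The oculomotor values were tight and the cord values spread widely, and the highest cord array, replicate 1 at 6 months, stayed just under the lowest oculomotor array. The means were 536 ± 55.7 and 266 ± 103 (SD, n = 9 each), a difference of -1.12 (SE 0.14, 95% interval -1.42 to -0.81, 2.17-fold, limma adjusted p = 3.29e-06). By age it was -0.87 at 6 months (limma adjusted p = 0.0146), -1.69 at 18 months (4.83e-05) and -0.79 at 30 months (0.0305). The calls at 6 and 30 months rested on few arrays. At 6 months the call was lost without replicate 2 of the oculomotor nucleus (adjusted p = 0.0525), without replicate 2 of the cord (-0.56, adjusted p = 0.0999) and with the muscle covariate (-0.50, adjusted p = 0.428). At 30 months it was lost without oculomotor replicate 2 (adjusted p = 0.0969) or 3 (0.0685), without cord replicate 2 (0.0642) or 3 (0.118) and without the arrays that stood apart (-0.63, adjusted p = 0.0541); without the low-value filter the adjusted p was 0.0529 at 6 months and 0.0933 at 30 months.

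Astrocyte markers were mixed. Of 11 that passed the filter, 5 were called higher and 2 lower in the cord, against 47.2% of all probe sets called, and their median difference was 0.19. The glutamate carrier Slc1a3 (-1.18), close in size to Slc6a11, and angiotensinogen (Agt, -0.45) were lower. The intermediate filament gene Gfap (0.92), the glutamate carrier Slc1a2 (0.50), the water channel Aqp4 (0.37), Aldh1l1 (0.29) and S100b (0.28) were higher. The part of astrocyte content in the Slc6a11 difference was not tested.

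Abat, the transaminase that degrades GABA, was modestly lower in the cord. The oculomotor signals (1369799_at) were 441, 467 and 499 (6 months), 523, 521 and 441 (18 months) and 500.2, 493 and 422 (30 months). In the cord they were 384, 396 and 389.9 (6 months), 391, 349 and 433 (18 months) and 390.4, 419.9 and 325 (30 months). Within each age all oculomotor arrays exceeded all cord arrays, although across ages the highest cord array passed the lowest oculomotor one. The means were 478 ± 37.1 and 387 ± 32.6 (SD, n = 9 each), a difference of -0.31 (SE 0.07, 95% interval -0.46 to -0.16, 1.24-fold, limma adjusted p = 0.00142). It was called at 18 months (-0.34, limma adjusted p = 0.0481) and not at 6 months (-0.26, 0.126) or 30 months (-0.32, 0.0719). The call at 18 months was lost when any of 12 of the 18 arrays was left out, with adjusted p between 0.0333 and 0.190 over the 18; it was kept without replicate 3 of the 18-month oculomotor nucleus, replicates 2 and 3 of the 30-month oculomotor nucleus, replicate 3 of the 18-month cord and replicates 2 and 3 of the 30-month cord. With the muscle covariate the difference over the ages was -0.25 (limma adjusted p = 0.0869). A second Abat probe set (1375321_at), under the filter, had tissue means of 147 ± 35.3 and 137 ± 27.9 (SD, n = 9 each) and gave -0.09 (SE 0.14, limma adjusted p = 0.723 without the filter), so the probe sets of Abat did not both pass.

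Glra2, the alpha 2 glycine receptor subunit, differed between the tissues by about as much as Gad2. Its oculomotor signals (1387696_a_at) were 494, 477 and 504 (6 months), 462, 381 and 408 (18 months) and 395, 404 and 421 (30 months). In the cord they were 182, 124 and 110.3 (6 months), 115, 25.8 and 111 (18 months) and 69.7, 137 and 45.9 (30 months). The highest cord array, replicate 1 at 6 months, was far below the lowest oculomotor array, and 2 of the 9 cord arrays lay under the floor. The means were 438 ± 46.1 and 102 ± 48.0 (SD, n = 9 each). With values under the floor set to it, the difference was -2.08 (SE 0.14, 95% interval -2.38 to -1.78, 4.22-fold, limma adjusted p = 7.13e-10), and 36 of the probe sets kept exceeded it. Since Glra2 passed the filter only through the oculomotor nucleus, this p-value and rank are a description. In the fit without the filter the limma adjusted p was 4.21e-07. The difference was called at each age, at -1.86, -2.13 and -2.24. A second probe set (1371153_a_at), under the filter, had tissue means of 188 ± 27.5 and 91.0 ± 24.5 (SD, n = 9 each) and gave -1.04 (SE 0.13, limma adjusted p = 4.83e-05 without the filter), again with no overlap. The estimate of 1387696_a_at was larger than that of Gad2 averaged over the ages and at 30 months, and smaller at 6 and 18 months; that of its second probe set was smaller than that of Gad2.

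Glrb, the beta subunit, did not pass the test. Its oculomotor signals (1370146_at) were 1423, 1430.1 and 1393 (6 months), 1335, 1432 and 1413 (18 months) and 1268, 1256 and 733 (30 months). In the cord they were 1423, 1198 and 1301 (6 months), 1063, 1166 and 892 (18 months) and 1428, 1479 and 869 (30 months). Over all arrays the tissues overlapped across their range, and replicate 3 at 30 months, which stood apart in both tissues, gave the lowest value of each. The means were 1298 ± 223 and 1202 ± 227 (SD, n = 9 each), and the difference was -0.11 (95% interval -0.34 to 0.12, limma adjusted p = 0.438; exact permutation p = 0.430), so a difference of up to 0.34 lower or 0.12 higher in the cord lies within the interval. At 18 months, where the tissues did not overlap, it was -0.43 (limma adjusted p = 0.108), and -0.32 (0.00958) without the arrays that stood apart; at 30 months it was 0.22 (0.466).

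**Figure D2:**
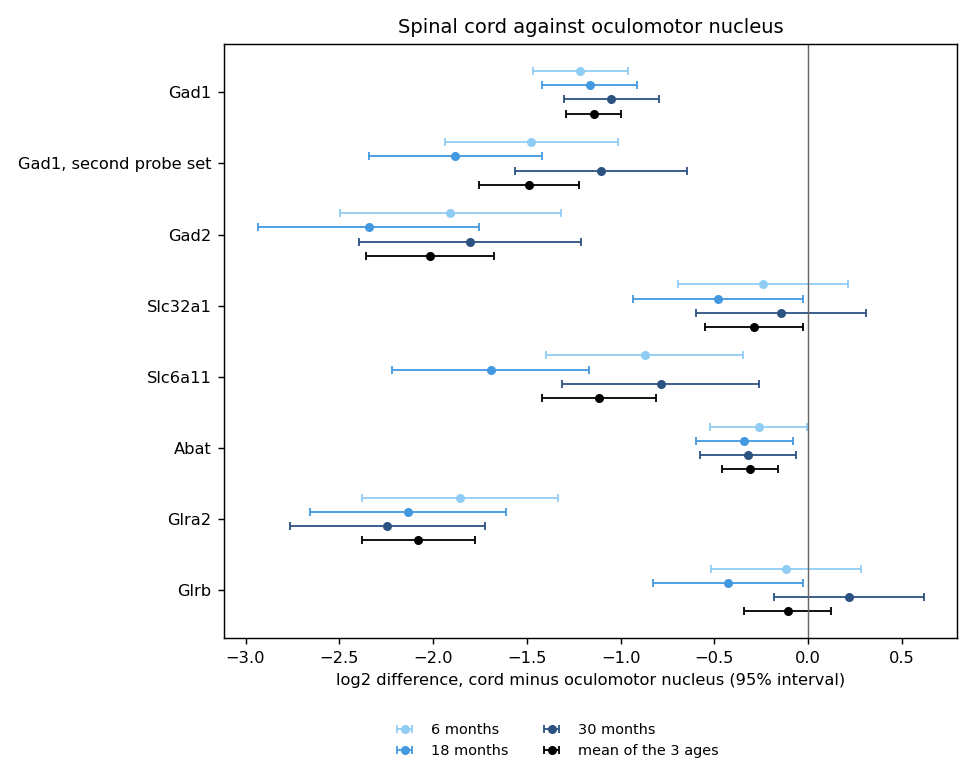
Spinal cord minus oculomotor nucleus, in log2 units, for the 8 member probe sets that passed the filter; points are the estimates at 6, 18 and 30 months and their mean, bars are 95% intervals from limma over 18 arrays, and values left of 0 are lower in the cord. Glra2 and Gad2 lie near -2, Gad1 and Slc6a11 near -1, and the mean intervals of Abat, Slc32a1 and Glrb lie between -0.55 and 0.12.

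Glra1 and Slc6a5 ran the other way, with more signal in the cord, but from values near or under the floor. Slc6a5, the glycine carrier GlyT2, read 50.2, 21.3 and 12.5 (6 months), 74.6, 39.2 and 15.8 (18 months) and 15, 70.3 and 8.70 (30 months) in the oculomotor nucleus (1371047_at). In the cord it read 207, 97.9 and 200.5 (6 months), 90.7, 134 and 100 (18 months) and 252, 166 and 63.1 (30 months). The signal was above the floor on 2 of 9 oculomotor arrays and 8 of 9 cord arrays. With the floor in place the cord was higher by 0.98 (SE 0.22, limma adjusted p = 0.00393 in the fit of all probe sets, exact permutation p = 0.001). Most oculomotor values entered the fit as the floor, which lowers the spread that the groups share, so the limma p-values may be too small. At 6 months, where no oculomotor array was above the floor, the cord was at least 2.40-fold higher (limma adjusted p = 0.0403; background 8.83% called higher). At 18 and 30 months the differences of 0.63 and 1.05 did not pass (limma adjusted p = 0.338 and 0.0996; background 9.28% and 6.98%).

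Glra1, the adult alpha 1 subunit, was under the floor on all 9 oculomotor arrays, with 1387464_at at 49.9, 15.9 and 14.6 (6 months), 64.9, 41.4 and 33.0 (18 months) and 52.4, 63.8 and 62.0 (30 months). In the cord it read 75.6, 39.9 and 75.9 (6 months), 204, 149 and 117 (18 months) and 194, 156 and 74.8 (30 months), above the floor on 8 of 9 arrays. At 6 months 2 of the 3 cord arrays lay just above the floor and 1 below it, and all 18-month and 2 of the 30-month cord arrays lay higher. Over the ages the cord was higher by 0.77 (SE 0.15, limma adjusted p = 0.00165 over all probe sets; exact permutation p = 0.001). By age this was 0.13 at 6 months (limma adjusted p = 0.905), 1.20 at 18 months (0.00708) and 0.98 at 30 months (0.0274), that is at least 2.30-fold at 18 months and at least 1.98-fold at 30 months. All 9 oculomotor values entered the fit as the floor and added no spread to the estimate that the groups share. The limma p-values may thus be too small, and the differences by age were not refitted without the floor. The second Glra1 probe set (1371156_a_at) did not show this. It was above the floor on 6 of 9 oculomotor and 7 of 9 cord arrays, had means of 76.0 ± 24.9 and 87.8 ± 23.0 (SD, n = 9 each), and gave 0.11 (SE 0.12, limma adjusted p = 0.550; exact permutation p = 0.452). The direction of Glra1 therefore rests on 1 of its 2 probe sets.

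Overlap between arrays restates the same values, and its counts are a description and not a further test. Over all 18 arrays 4 of the 7 tested genes (Gad1, Gad2, Slc6a11 and Glra2) had no overlap between tissues, against 14.2% of all probe sets. Of these, Gad2 and Glra2 passed the filter only through the oculomotor nucleus. Slc6a5 and Glra1, which the filter took out, overlapped between the tissues over all 18 arrays. Within an age the tissues did not overlap for 5 of 7 genes at 6 months (background 40.7%), 7 of 7 at 18 months (44.9%) and 5 of 7 at 30 months (33.5%). The 2 genes that overlapped at 6 and 30 months were Slc32a1 and Glrb. With 3 arrays against 3, such separation is common, as the backgrounds show.

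Ratios between members on the same array are given for 4 pairs. The pairs were chosen after the values above were known, so the ratios restate those values array by array and no test is given. The height of a ratio depends on the probes and has no meaning of its own; ranges are printed only to show whether the tissues overlapped. From the oculomotor nucleus to the cord the log2 ratio of Gad2 over Gad1 fell by 0.87 (1.83-fold), and its ranges of -2.82 to -2.04 in the oculomotor nucleus and -4.13 to -2.65 in the cord overlapped. Gad1 over Slc32a1 fell by 0.86 (1.81-fold), from 0.54 to 1.50 in the oculomotor nucleus to -0.78 to 0.26 in the cord, with no overlap. Gad2 over Slc32a1 fell by 1.73 (3.32-fold). Among the receptor subunits, Glra2 over Glrb fell by 1.97 (3.91-fold). The last 3 ratios did not overlap between tissues. Glra1 was set in no ratio, since it was under the floor on every oculomotor array.

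**Figure D3:**
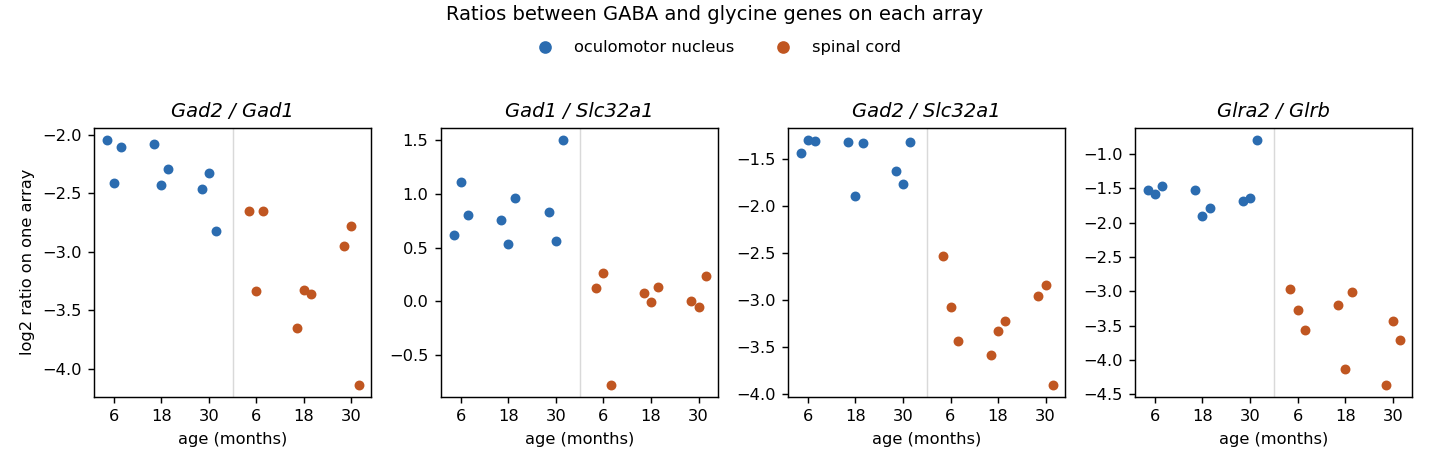
Within-array log2 ratios of 4 pairs of member genes on the 18 arrays, by tissue and age in months; each point is 1 array. The oculomotor and cord points are apart in every panel except Gad2 over Gad1, where the ranges of -2.82 to -2.04 and -4.13 to -2.65 overlap.

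The other genes of inhibitory transmission went in both directions. This list held 48 genes (GABA receptor subunits, other carriers and enzymes, chloride carriers, scaffold proteins and glycine metabolism), 40 of them on the array and 28 past the filter. In the cord 11 were called higher, 13 lower and 4 were not called, with a median of 0.01 against -0.01 over all probe sets. Over all probe sets 47.2% were called and 23.6% were called lower; a difference between this list and the members was not tested. The 8 with the smallest p are named here. Gabrb2, the beta 2 subunit of the GABA-A receptor, differed by -1.95 (SE 0.08, limma adjusted p = 5.84e-13). Both subunits of the metabotropic GABA-B receptor were lower in the cord, Gabbr1 at -0.50 (limma adjusted p = 1.21e-06) and Gabbr2 at -0.71 (4.47e-05). Slc1a3, the astrocyte glutamate carrier GLAST, differed by -1.18 (9.60e-12), and Slc38a1, a neuronal carrier of the glutamate precursor glutamine, by -0.32 (0.000151). On the other side were Slc12a2, the chloride importer NKCC1, at 0.43 (limma adjusted p = 1.37e-07), Slc6a9, the glycine carrier GlyT1 found mostly on glia, at 0.39 (0.000296), and Phgdh, the first enzyme of serine synthesis, from which glycine is made, at 0.33 (0.00026). None of the 28 was called in any age comparison.

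Markers of inhibitory neuron subtypes were also mixed. Of 22 listed genes 17 were on the array and 11 passed the filter. Of these, 3 were called higher in the cord, 6 lower and 2 were not called. Over all probe sets 47.2% were called and 23.6% were called lower, which is also the background for the other marker lists below. Vasoactive intestinal peptide (Vip, -1.46), the calcium binding proteins Calb1 (-1.15) and Calb2 (-0.86), the transcription factors Tal1 (-1.04) and Gata2 (-0.80), which specify GABA neurons of the midbrain and some of the cord, and galanin (Gal, -0.64) were lower in the cord. Neuropeptide Y (Npy, 1.13), somatostatin (Sst, 0.19) and enkephalin (Penk, 0.16) were higher. Parvalbumin (Pvalb, -0.05) and Cck (-0.12) did not pass. General neuronal markers were mixed as well: of 16, 9 were called lower, 3 higher and 4 not, with a median of -0.27, and they ran from Gap43 (-1.32) and Vamp2 (-1.27) to Nefm (0.60). Their summed signals of 60612 to 68066 in the oculomotor nucleus and 54160 to 69179 in the cord overlapped. A sum is carried by the brightest probe sets. Their mean log2, in which each gene weighs alike, did not overlap. It was 11.62 to 11.76 on the oculomotor arrays and 11.28 to 11.48 on the cord arrays. Glutamate neuron markers were not mixed. Of 9 on the array 5 passed the filter, and all 5 were called lower in the cord, with a median of -1.01. Camk2a, Grin2a, Grin2b and Tbr1 were under the filter. Of 8 myelin and oligodendrocyte markers 5 were called higher in the cord, 0 lower and 3 not, with a median of 0.29. The part of neuron content in the member differences was not tested.

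For each member called over the ages, the 3 genes with the most similar profile were found by the root mean square difference of centred log2 values over the 18 arrays. Both tissues enter this measure, so genes with a tissue difference of like size lie near each other. For Gad1 they were Pkia (0.148), Wdr6 (0.156) and Cspg5 (0.161), against a median of 0.613 over all genes. For Gad2 they were Gabrb2 (0.331), Rasd2 (0.358) and Syt17 (0.373), against 1.09. For Slc6a11 they were Scn3a (0.382), Kcnc2 (0.384) and Dpp6 (0.391), against 0.729, and for Glra2 they were Ddc (0.277), Syt17 (0.299) and Amigo2 (0.340), against 1.11. Abat lay nearest to Rprd1a (0.0796), Pdha1 (0.0925) and Hnrnpl (0.0950), against 0.277. Syt17, a member of the synaptotagmin family, was on the lists of both Gad2 and Glra2.

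None of the 7 tested members was called between ages, the comparison for which the study took 6 months as its baseline. In the oculomotor nucleus 0 of 7 were called by limma at 18 against 6 months, 30 against 6 months and 30 against 18 months, with 0%, 0.211% and 0.0105% of all probe sets called and 0, 1 and 1 of the 7 at an unadjusted p under 0.05. In the cord 0 of 7 were called in the same comparisons, with 0.728%, 0.221% and 0.0105% of all probe sets called and 1 of the 7 at an unadjusted p under 0.05 in each. A joint test over the 3 ages called 0 of 7 in each tissue (background 0.0844% in the oculomotor nucleus and 0.411% in the cord); at an unadjusted p under 0.05 there were 0 and 2. The 18- and 30-month comparisons share the 6-month arrays, and few probe sets passed in any of them. Without overlap between ages were 1, 2 and 1 of the 7 genes in the oculomotor comparisons, in the order above (background 14.5%, 13.9% and 8.81%), and 2, 0 and 1 in the cord comparisons (13.6%, 13.1% and 6.46%).

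**Figure D4:**
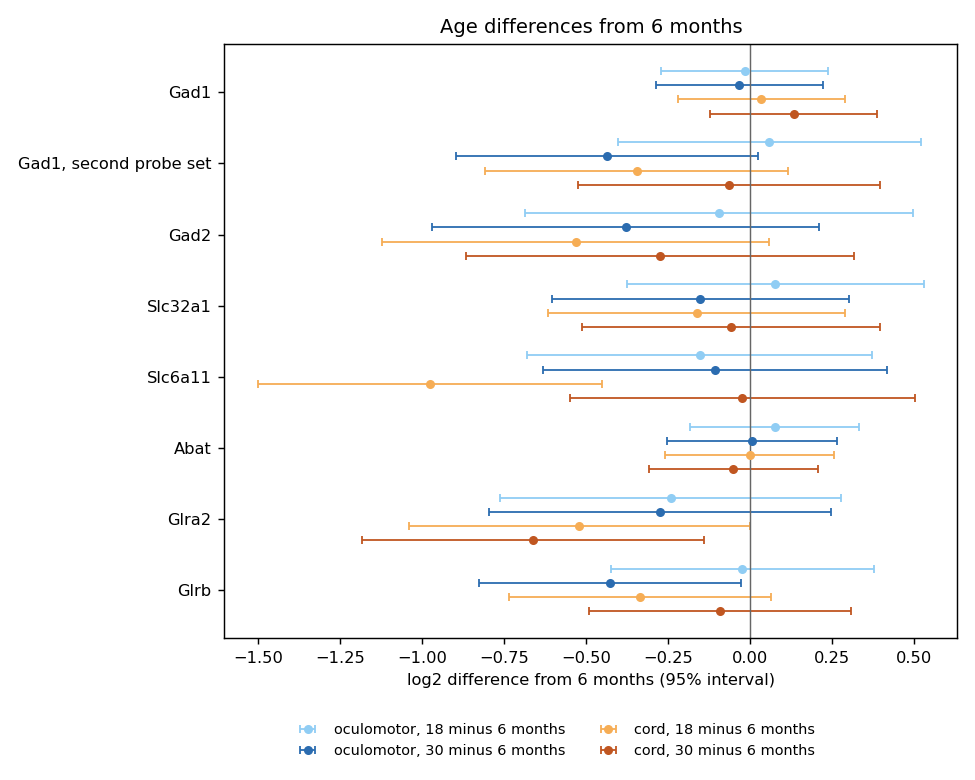
Log2 difference from 6 months of the 8 member probe sets that passed the filter, at 18 and 30 months, in the oculomotor nucleus and the spinal cord; points are limma estimates from 3 arrays a group and bars are 95% intervals. Most intervals cross 0; Slc6a11 in the 18-month cord lies lowest at -0.98.

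Among the 7 tested members the largest difference between ages was that of Slc6a11 in the cord, where the 18-month mean was the lowest. Group means were 324 ± 109, 166 ± 70.6 and 308 ± 56.8 (SD, n = 3 each) at 6, 18 and 30 months. The 18-month arrays were all below the 30-month arrays, and replicate 3 at 18 months, which stood apart, was above replicate 2 at 6 months. The difference at 18 against 6 months was -0.98 (SE 0.25, 95% interval -1.50 to -0.45, limma unadjusted p = 0.000992, adjusted p = 0.0866), and at 30 against 18 months it was 0.95 (95% interval 0.43 to 1.48, adjusted p = 1.00). At 30 against 6 months it was -0.02 (limma adjusted p = 0.989), and 0.33 (0.572) without the 4 arrays that stood apart. The call depended on the arrays taken. Without replicate 3 of the 18-month cord the 18-month difference was -1.30 (limma adjusted p = 0.00569) and the 30 against 18 month difference 1.28 (0.0299); without replicate 2 of the 6-month cord the first was -1.28 (0.0225). Without the 4 arrays that stood apart, a choice made after the data were seen, the values were -1.09 (0.0163) and 1.42 (0.0108), and with those arrays as a block the first was -0.98 (0.0405). In the oculomotor nucleus the 18-month difference was -0.15, and the difference between the tissues in this change, -0.82 (95% interval -1.56 to -0.08), did not pass (limma adjusted p = 0.938; 0% of all probe sets called). None of the 7 members passed for the change to 30 months either, where again 0% of probe sets were called; 1 and 0 of the 7 were at an unadjusted p under 0.05.

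The receptor subunits did not pass between ages either. Glra2 in the cord differed by -0.66 at 30 against 6 months (95% interval -1.18 to -0.14, limma adjusted p = 0.332), with 1 array under the floor at each later age, and by -0.26 (0.757) without the arrays that stood apart. In the oculomotor nucleus its 18- and 30-month arrays all lay below its 6-month arrays, at -0.24 and -0.27 (limma adjusted p = 1.00 and 0.822). Glrb in the oculomotor nucleus had means of 1415 ± 19.5, 1393 ± 51.5 and 1085 ± 306 (SD, n = 3 each), and the 30-month arrays lay below all younger ones. Its 30 against 6 month difference was -0.43 (95% interval -0.83 to -0.03, limma adjusted p = 0.570) and was -0.17 (adjusted p = 0.584) without the arrays that stood apart, of which replicate 3 at 30 months was the lowest in the group. Glra1 in the cord had means of 63.8 ± 20.7, 157 ± 43.6 and 142 ± 60.9 (SD, n = 3 each); with the floor in place it differed by 1.07 at 18 months and 0.86 at 30 months from 6 months, without passing (limma adjusted p = 0.122 and 0.265 over all probe sets). The second Glra1 probe set gave 0.07 and -0.29 in the same comparisons. Slc6a5 in the cord gave -0.58 and -0.18 (limma adjusted p = 0.686 and 1.00 over all probe sets).

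The synthesis genes and the vesicular carrier gave no call with age. The 6 age differences of Gad1 lay between -0.03 and 0.13 (95% intervals within -0.29 to 0.39), so changes of the size of its tissue difference lie outside them. Its second probe set was lower at 30 months in the oculomotor nucleus, with 546 and 511 on 2 of 3 arrays against 815 to 952 at the younger ages, a difference of -0.44 (limma adjusted p = 0.619) that 1368344_at did not show (-0.03). Gad2 differed by -0.53 at 18 against 6 months in the cord, with no overlap (limma adjusted p = 0.540), and by -0.38 at 30 against 6 months in the oculomotor nucleus (adjusted p = 0.768). Without the arrays that stood apart these were -0.31 and -0.23, and that of the second Gad1 probe set was -0.27. Slc32a1 ranged from -0.23 to 0.11 and Abat from -0.07 to 0.08 over the 6 comparisons, and both changed sign in some of them without the arrays that stood apart. On replicate 3 at 30 months of the oculomotor nucleus, Slc32a1 lay at -0.84 and Glrb at -0.78 from the mean of the other arrays of the group, on the log2 scale, whereas Gad1 lay at -0.03. On replicate 3 at 30 months of the cord all 8 probe sets were the lowest of their group, Gad2 at -1.45. Marker lists on the 4 arrays that stood apart were set against a group mean that includes the array itself. The mean of the general neuronal markers was within 0.042 of it. Astrocyte markers lay 0.034 to 0.115 above it, and myelin and oligodendrocyte markers 0.041 to 0.213 above. Choroid plexus and blood markers lay 0.044 to 0.447 above. Motor neuron and cholinergic markers lay at -0.183 to -0.029. Such shifts were not confined to these arrays. On replicate 3 of the 6-month cord, which did not stand apart, astrocyte markers lay 0.107 above the group mean and myelin markers 0.088 above. The ratio of 3′ to 5′ signal of the beta-actin control was the highest of its group on each of the 4 arrays that stood apart. It was 1.54 (30-month oculomotor nucleus), 1.26 (6-month cord), 1.27 (18-month cord) and 1.40 (30-month cord). The hexokinase ratio was also the highest of its group, except in the 6-month cord. The GAPDH ratio was so only in the 30-month oculomotor nucleus and the 18-month cord. What set the 4 arrays apart was not tested.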

How the data were processed

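The 18 arrays (Affymetrix RA230) were hybridised with biotin-labelled cRNA of pooled tissue, and the authors made the deposited signal intensities with Affymetrix Microarray Suite 5.0, per the labels and the submitters' processing notes. The labels give 3 arrays a group, whereas the design text speaks of 4 replicates; the 3 were used. Signals were brought to a common 2% trimmed mean (factors 0.999981 to 1.00002), values under the pooled 20th percentile (66.4) were set to it, 57 control probe sets were removed, and log2 values were taken. Probe sets with a mean log2 above the pooled 40th percentile (7.46) were kept, 9482 in all. Of all probe sets 12789 named 1 gene, 12754 of them matched to RefSeq by gene ID.

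A mean for each of 6 groups was fitted in 1 model with limma 3.58.1 (R 4.3.3, eBayes with a trend, 12 residual degrees of freedom), with Benjamini-Hochberg adjustment over all probe sets kept and calls at an adjusted p under 0.05. Member probe sets under the filter were read from the same model fitted to all 15866 probe sets. Exact tests permuted tissue labels within ages (8000 arrangements, R 4.3.3). The fit was checked on simulated data. Where a gene had several probe sets, the brightest on average stood for it.

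Named were all members, the 8 listed inhibitory genes with the smallest p, any of them called with age, and the 3 genes of most like profile for each member called. Members, lists and alternatives were chosen with earlier results of these data known, and the ratio pairs after their values were seen. Alternatives changed the scaling, floor, filter, moderation, probe set, samples in the fit and blocks, or left out arrays.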

Additional observations from a re-analysis of the deposited data

How the results depend on the processing

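No called difference, nor the tissue differences averaged over the ages, changed direction under any alternative run for it. Of 42 age differences of the 7 tested members, none called, 10 changed sign without the 4 arrays that stood apart; at 30 against 6 months in the cord Gad2 went from -0.27 to 0.37, Slc6a11 from -0.02 to 0.33 and Glrb from -0.09 to 0.22, at 30 against 18 months Glra2 from -0.14 to 0.16, and at 30 against 6 months in the oculomotor nucleus Slc32a1 from -0.15 to 0.13. The count of members called was recomputed for 14 comparisons with each of the 18 arrays left out and under up to 14 other settings; 436 of these counts were within 1.5 times the reported one and 9 were not. All 9 concern Slc6a11 in the cord. For 18 against 6 months the count was 1 in place of 0 with the arrays that stood apart as a block and without them, and 0 to 1 with single arrays left out. For 30 against 18 months and for any age difference in the cord it was 1 without the arrays that stood apart and 0 to 1 with single arrays left out. The count of members called over the ages was 5 to 6 with single arrays left out and 4 to 7 under other settings: 7 without the filter, which lets Slc6a5 and Glra1 in, and 4 with the stricter filter, which drops Glra2, or with the muscle covariate. At 6, 18 and 30 months it was 3 to 4, 4 to 6 and 3 to 4 with single arrays left out. Slc6a5 and Glra1 stayed called over the ages in every alternative run on all probe sets, at 0.98 to 2.35 and 0.75 to 1.45 over other settings; the higher values came without a floor.

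Whether same-numbered arrays were paired was not given in the sources used here. Correlations of deviations from means of 3 arrays cannot settle it. Deviations of same-numbered arrays of both tissues correlated above 0.1 in 3 of 9 pairs, all 3 at 30 months (0.121, 0.235 and 0.501), where the replicate block left the count of members called at 4; those of same-numbered arrays across ages did so in 2 of 18. With the replicate block the count over the ages was 6, since Slc32a1 passed (limma adjusted p = 0.00408), and Abat at 18 months did not (0.0552).

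The number of arrays limits the precision, and signals near the floor of 66.4, those of Slc6a5, Glra1 and Glra2 in the cord, give bounds more than levels. Separate fits per age gave no value for the differences averaged over ages or between tissues in the change with age.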
